A study of Ovis aries with 30 samples.

Results

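Fatty acid oxidation and ketogenesis were followed through 40 named genes in the livers of 30 F1 lambs. The genes were taken from a fixed list of carnitine shuttle proteins, mitochondrial and peroxisomal oxidation enzymes, ketone body enzymes and genes that respond to fasting, and were kept where the count table has a row of that name. That left 38 of 40 genes, out of 31304 gene rows; ACOT1 and ACOT2, acyl-CoA thioesterases, were not analysed here. 37 of the 38 passed the filter on low counts and entered the tests, and BDH1 did not.

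The series is an RNA-seq study of whole liver (Ovis aries) that asked how exposure before conception and through gestation to biosolids, which are treated sewage solids and carry a mixture of environmental chemicals, bears on the liver of the offspring. It has 8 female and 7 male lambs of the Biosolids group and 8 female and 7 male lambs of the Control group. No treatment of the lambs themselves is labelled, and age, breed, litter and processing batch are not labelled, so what lambs of a group share through dam or handling and what exposure does cannot be told apart. Levels are given as CPM, the usual depth-corrected count. Fold changes are on the log2 scale with a standard error (SE). A gene counted as called where edgeR's quasi-likelihood test gave an adjusted p under 0.05 (Benjamini-Hochberg, over 17840 genes tested).

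Long-chain fatty acids that reach the hepatocyte are joined to coenzyme A, passed to carnitine and carried into the mitochondrion by the carnitine shuttle. There they lose acetyl-CoA in turns of dehydrogenation, hydration, a further dehydrogenation and thiolysis, while peroxisomes shorten very long and branched chains. In fasting, the liver turns surplus acetyl-CoA into ketone bodies; in ruminants the rumen wall is a further large source of ketone bodies, and sheep liver draws its fatty acids mainly from body fat rather than from its own synthesis.

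Libraries held between 18688079 and 51905219 counts. The library of Biosolids male 8778 had the lowest total and 87.5% of its counts on ribosomal RNA rows, against 0.299% to 7.69% in the other 29 libraries. The 0.299% was that of Control male 8364, and the next lowest share was 2.43%. That left 2.34 M counts for all other genes in lamb 8778, against at least 23.1 M in each other library. In the library labelled Control male 8408, the X-linked non-coding gene LOC101112291 stood at 302 CPM, against at most 2.05 CPM in the other 13 males and 318 to 823.5 CPM in females, so this library goes against its sex label on that gene. Control female 8263 stood apart by interferon-response genes, with IFIT3 at 545 CPM against at most 53.9 CPM in any other lamb, and by macrophage markers that summed to 2085 CPM against a median of 946 CPM in Control females. Hepatocyte markers were high in every library, with 11 of 12 listed genes in the table and summed levels between 62640 and 124600 CPM, while erythroid markers summed to at most 1.06 CPM; APOA2 and the macrophage marker CD68 were listed at 0 in all lambs. In whole tissue, fewer cells of a type and less RNA per cell cannot be told apart.

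The pathway was well represented in these livers. The 38 genes together took 1.07% to 1.34% of the counts outside ribosomal RNA in Biosolids females, against 0.911% to 1.39% in Control females. In males the share was 1.06% to 1.23% in the Biosolids group and 1.06% to 1.16% in the Control group, so the ranges overlapped in both sexes. Per kilobase of annotated length, which allows genes to be set beside each other, 36 of the 38 genes had a median level over lambs of at least 1 CPM per kb, 32 of at least 10, and 14 of at least 100. ACAA1, the peroxisomal thiolase, was highest at a median of 478.8 CPM per kb. ACADVL, the very-long-chain acyl-CoA dehydrogenase of the inner mitochondrial membrane, followed at 267.9 CPM per kb, and ECHS1, the short-chain enoyl-CoA hydratase, at 237.4 CPM per kb. The lowest levels belonged to ABCD2, a peroxisomal importer of very long chain acyl groups, at 0.0283 CPM per kb, BDH1 at 0.0519 CPM per kb and CPT1B, the carnitine palmitoyltransferase known from muscle, at 2.94 CPM per kb. ACSL1 and ETFA have long annotated lengths in the table (23648 and 12700 bases), which lowers their level per kilobase relative to the other genes.

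**Figure D1:**
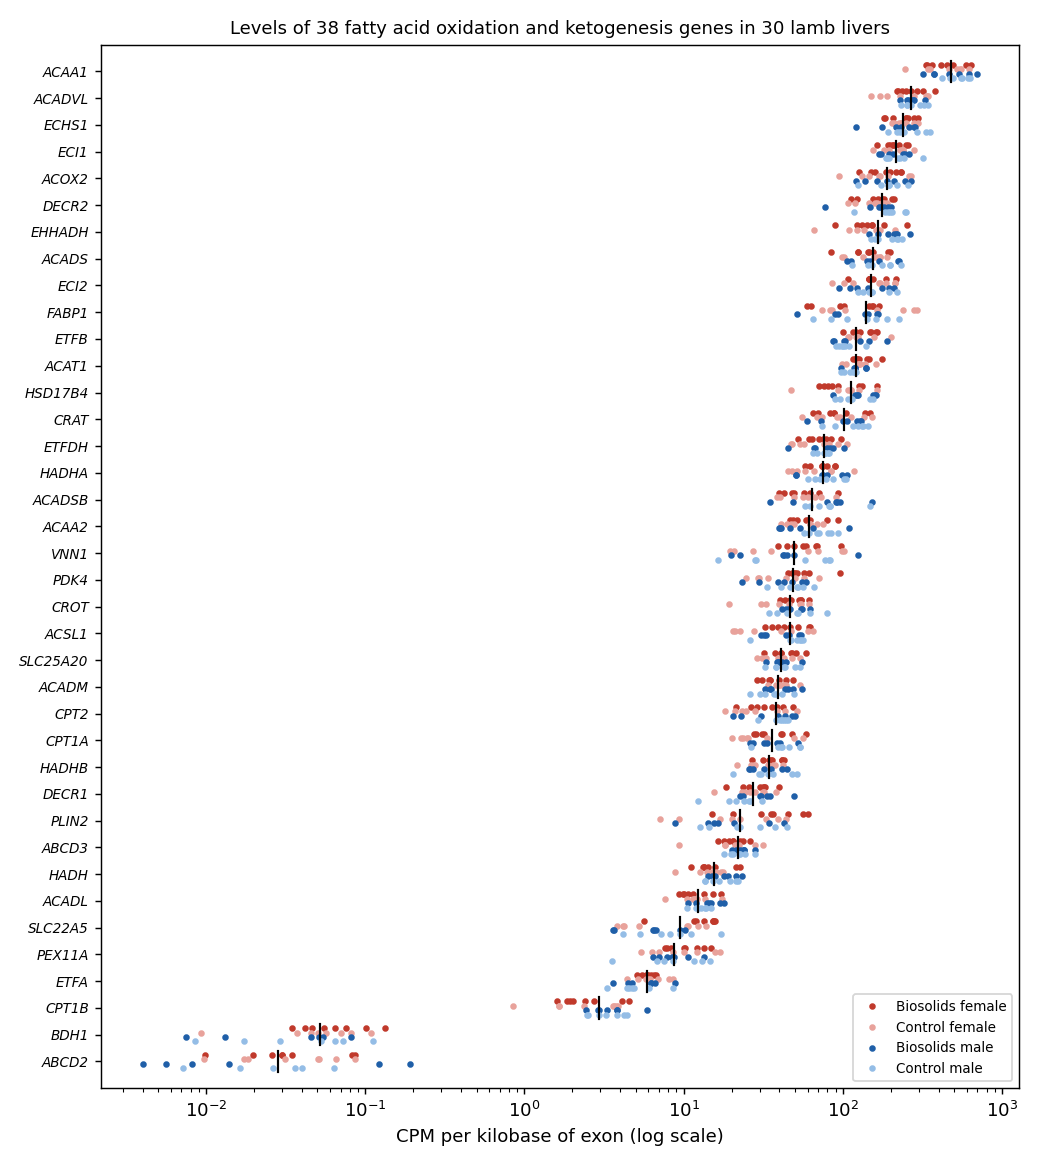
Level of each of the 38 genes in CPM per kb on a log axis, 1 point per lamb coloured by group, with genes ordered by level and a black line at the median over lambs. 14 genes have a median of at least 100 CPM per kb, while ABCD2 and BDH1 lie below 0.1; lambs with no count for a gene (1 for BDH1, 2 for ABCD2) are not drawn.

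Related proteins differed widely in level. CPT1A, the outer-membrane carnitine palmitoyltransferase typical of liver and the main control point of entry into the mitochondrion, had a median of 36.0 CPM per kb, 12.2-fold that of CPT1B. ABCD3, a peroxisomal importer of long and branched chains, had a median of 21.9 CPM per kb, 776-fold that of ABCD2. At the ketone end, ACAT1, the mitochondrial acetoacetyl-CoA thiolase, had a median of 120.4 CPM per kb, while BDH1, the mitochondrial enzyme that interconverts acetoacetate and 3-hydroxybutyrate, had 211 counts over all 30 lambs and at most 16 in one lamb. BDH1 levels spanned 0.120 to 0.464 CPM in Biosolids females and 0.0322 to 0.380 CPM in Control females. They spanned 0 to 0.282 CPM in Biosolids males and 0.0296 to 0.388 CPM in Control males. BDH1 was thus barely detected in any group, and differences in it were not detectable at this depth.

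None of the 37 genes tested passed the adjusted threshold in any comparison. For exposure, that is 0 of 37 genes in females, in males, over both sexes and in the interaction of exposure with sex, beside 0% of all 17840 genes called in each of these 4 comparisons. By unadjusted p under 0.05 the edgeR test marked 2 of the 37 genes in females (5.41%, against 3.65% of all genes), 1 in males (2.7%, against 5.44%), 1 over both sexes (2.7%, against 4.3%) and 2 in the interaction (5.41%, against 3.63%). DESeq2 and limma voom also called 0 of the 37. Of all 17840 genes DESeq2 called 0 for exposure in females, 4 in males, 4 over both sexes and 1 in the interaction, and limma voom called 0 in each. The spread between lambs, as the median biological coefficient of variation, was 26.8% for these genes, beside 28.4% over all genes tested. The 2 sets were not matched for level.

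The intervals of the exposure effect were narrow enough to bound it for most of the pathway. In females the 95% interval of the fold change lay within 2-fold in either direction for 33 of 37 genes and within 1.5-fold for 28; the 4 with wider intervals were FABP1, SLC22A5, PLIN2 and ABCD2. In males it lay within 2-fold for 34 of 37 genes, all but SLC22A5, PLIN2 and ABCD2, and within 1.5-fold for 20. Averaged over both sexes it lay within 2-fold for 36, all but ABCD2, and within 1.5-fold for 32. The interaction of exposure with sex was bounded less tightly, within 2-fold for 28 of 37 genes and within 1.5-fold for 6. No gene's lambs were free of overlap between the Biosolids and Control groups in either sex (0 of 37 genes in each, beside 0% of all genes in females and 0.0561% in males).

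**Figure D2:**
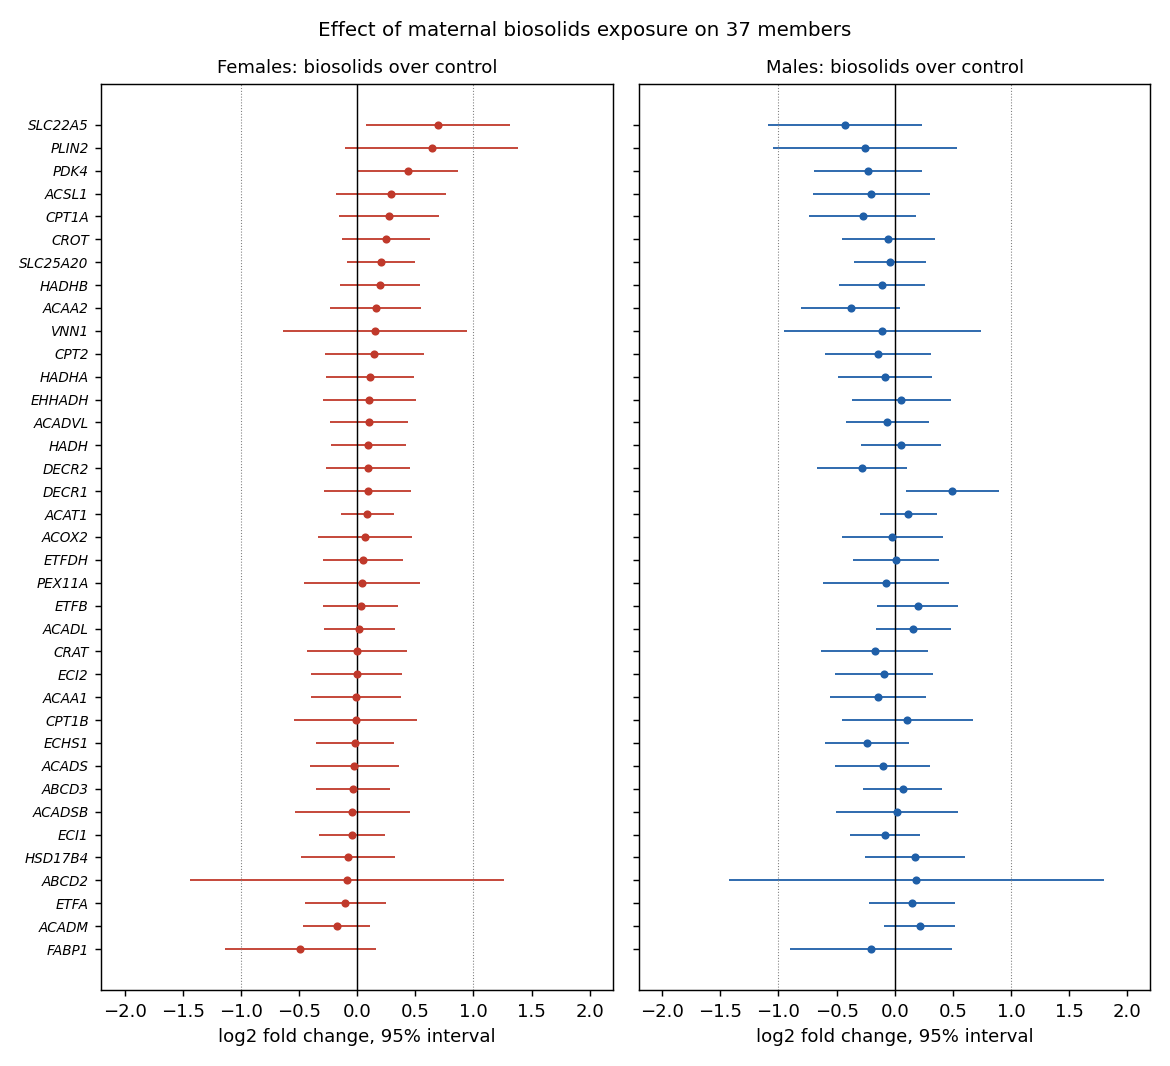
Log2 fold change, Biosolids over Control, of the 37 genes tested in females and in males, with 95% intervals as bars, a line at 0 and dotted lines at 1 and -1 (2-fold). None of the 37 estimates passed the adjusted threshold in either sex, and most intervals stay inside the dotted lines.

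As a list, the 37 genes had a median log2 fold change of 0.07 in Biosolids against Control females, with 23 point estimates above 0 and 14 below, beside a median of -0.02 over all genes. In Biosolids against Control males the median was -0.07, with 14 above and 23 below, beside 0.01 over all genes. Both medians depended on single lambs. With 1 lamb left out at a time the female median reached 0.12 when Control female 8313 was dropped and 0.00 when lamb 8263 was. The male median ranged between -0.13 (without Biosolids male 8762) and -0.00 (without Control male 8364), and was -0.10 without the library labelled Control male 8408. The count of called genes stayed at 0 in each case. Hepatocyte markers had a median log2 fold change of -0.01 over 10 tested genes in females and -0.16 in males, where all 10 point estimates were below 0. Bile duct markers were above 0 in 6 of 7 tested genes in each sex (median 0.89 in females and 0.42 in males), and summed to 432.8 CPM in Biosolids female 8649 against a median of 20.8 CPM in Biosolids females. By the median lamb their sum was lower in the Biosolids group, at 20.8 against 23.8 CPM in females and 26.8 against 31.3 CPM in males. Stellate and fibroblast markers were above 0 in 9 of 10 genes in females (median 0.26) and in 5 of 10 in males (median -0.06). T and NK cell markers were below 0 in all 5 tested genes in females (median -0.39) and in males (median -0.19), and macrophage markers in 5 of 7 in each sex (median -0.21 in females and -0.03 in males). The part of these cell types in the medians of the pathway was not tested.

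In the carnitine shuttle, the lowest p-values for exposure in females and for the interaction belonged to SLC22A5, the plasma membrane carnitine transporter OCTN2, which brings carnitine into the cell. Its lowest, median and highest levels were 18.1, 46.0 and 50.7 CPM in Biosolids females, against 12.2, 25.3 and 44.4 CPM in Control females. In males they were 11.5, 20.9 and 32.9 CPM in the Biosolids group and 13.4, 26.3 and 55.0 CPM in the Control group. Biosolids female 8668, at 18.1 CPM, was low among Biosolids females, the other 7 of which lay between 37.2 and 50.7 CPM, and the groups overlapped in both sexes. For SLC22A5 in females the log2 fold change was 0.69 ± 0.30 (SE, adjusted p = 1.0 by edgeR), with an interval of 0.07 to 1.31. For the interaction, in which the female effect is subtracted from the male one, the value was -1.12 ± 0.44 (SE, adjusted p = 0.951 by edgeR). SLC22A5 overlaps 2 antisense gene rows, of which LOC114114851 had a median of 1.35 CPM, and the sources used here do not state whether counting used strand.

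CPT1A showed no call in either sex. Its levels were 217, 285 and 461 CPM (lowest, median, highest) in Biosolids females, against 158, 197 and 437 CPM in Control females. In males they were 203.5, 263 and 407 CPM in the Biosolids group and 207.5, 325 and 423 CPM in the Control group. All ranges overlapped, and the log2 fold change was 0.27 ± 0.21 in females and -0.27 ± 0.22 in males (SE; adjusted p = 1.0 and 0.833 by edgeR). Leaving out single lambs moved the female estimate of CPT1A between 0.16 (without Biosolids female 8731) and 0.44 (without Control female 8245). The remaining shuttle genes (CPT1B, CPT2, the carrier SLC25A20, the carnitine acetyltransferase CRAT and the peroxisomal octanoyltransferase CROT) had median levels between 9.37 CPM for CPT1B and 464.7 CPM for CRAT, and none was called.

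FABP1, the liver fatty acid binding protein that carries fatty acids through the cytosol, had levels of 78.1, 163 and 220 CPM in Biosolids females, against 96.9, 174 and 382 CPM in Control females. In males the values were 67.5, 181 and 217 CPM in the Biosolids group and 84.4, 186.5 and 296 CPM in the Control group. The highest lamb of all 30 was Control female 8263, and all ranges overlapped. For FABP1 in females this gave a log2 fold change of -0.49 ± 0.32 (SE, adjusted p = 1.0 by edgeR), and -0.32 without lamb 8263. In males it was -0.20 ± 0.34 (SE, adjusted p = 0.903 by edgeR), and between -0.33 (without Control male 8382) and -0.05 (without the library labelled Control male 8408) with single lambs left out. Averaged over both sexes it was -0.35 ± 0.23 (SE, adjusted p = 0.943 by edgeR). ACSL1, the main long-chain acyl-CoA synthetase of liver, ranged between 484 and 1539 CPM over all lambs and was not called.

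Among the acyl-CoA dehydrogenases, which carry out the first step of each turn and differ in the chain length they take, ACADM (medium chain) had 200.3, 242 and 335 CPM in Biosolids females, against 236, 286.5 and 374 CPM in Control females. In males it had 225, 300.4 and 386 CPM in the Biosolids group and 181, 257 and 340.1 CPM in the Control group. The groups overlapped, with a log2 fold change of -0.18 ± 0.14 in females and 0.22 ± 0.15 in males (SE; adjusted p = 1.0 and 0.816 by edgeR). The interaction was 0.39 ± 0.20 (SE, adjusted p = 0.951 by edgeR). The male estimate was 0.14 without Biosolids male 8778, the library with few counts outside ribosomal RNA, which was the highest of all lambs for this gene. ACADVL, ACADL (long chain), ACADS (short chain) and ACADSB, which takes short branched chains from isoleucine, were not called for exposure.

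The mitochondrial trifunctional protein, which completes the turn for long chains, is encoded by HADHA (chromosome 3, 33421140 to 33463463) and HADHB (chromosome 3, 33463788 to 33492678) on assembly ARS-UI_Ramb_v3.0. These neighbours run head to head with 324 bases between their annotated starts. HADHA had 157.5, 203 and 241 CPM in Biosolids females and 123, 168 and 321 CPM in Control females, and 138, 203 and 288 CPM in Biosolids males and 163, 212 and 283.5 CPM in Control males. HADHB had 152, 200.4 and 241 CPM in Biosolids females and 121, 173 and 237 CPM in Control females, and 145, 179 and 249 CPM in Biosolids males and 115.5, 191 and 288 CPM in Control males. For both genes every range overlapped the others. The log2 fold changes in females were 0.11 ± 0.18 for HADHA and 0.19 ± 0.17 for HADHB (SE, adjusted p = 1.0 for each by edgeR). In males they were -0.09 ± 0.20 for HADHA and -0.11 ± 0.18 for HADHB (SE; adjusted p = 0.934 and 0.902 by edgeR), and the HADHB estimate was 0.02 by limma voom. Leaving out single lambs moved HADHA in females between 0.05 (without Control female 8322) and 0.27 (without Control female 8245). In males it moved HADHA between -0.17 (without Biosolids male 8770) and -0.01 (without Biosolids male 8735), and HADHB between -0.21 (without Control male 8382) and -0.00 (without Control male 8364).

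ACAA2, the mitochondrial thiolase that releases acetyl-CoA from medium chains, had 201, 235.5 and 554 CPM in Biosolids males, against 289, 358 and 471.5 CPM in Control males. Biosolids male 8762 was the highest of all 30 lambs for this gene, while the median Biosolids male lay below the lowest Control male. In males the log2 fold change of ACAA2 was -0.38 ± 0.21 (SE, adjusted p = 0.816 by edgeR), and -0.62 without lamb 8762. Over both sexes it was -0.11 ± 0.14 (SE, adjusted p = 0.947 by edgeR), and -0.23 without lamb 8762. The interaction was -0.54 ± 0.28 (SE, adjusted p = 0.951 by edgeR). ECHS1 had 574, 1094 and 1346 CPM in Biosolids males and 906, 1140 and 1663 CPM in Control males, with a log2 fold change of -0.24 ± 0.18 in males (SE, adjusted p = 0.827 by edgeR; -0.13 without lamb 8762). HADH, the short-chain hydroxyacyl-CoA dehydrogenase, ranged between 72.1 and 188.5 CPM over all lambs.

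DECR1, the mitochondrial 2,4-dienoyl-CoA reductase needed for polyunsaturated chains, had the lowest p of these genes for exposure in males and over both sexes. Its levels were 47.0, 63.7 and 101.9 CPM in Biosolids males, against 25.4, 49.6 and 63.7 CPM in Control males. In females they were 37.9, 63.6 and 82.4 CPM in the Biosolids group and 32.2, 56.1 and 79.0 CPM in the Control group. The highest lamb was Biosolids male 8778 and the lowest Control male 8364, and the groups overlapped in both sexes. In males DECR1 had a log2 fold change of 0.49 ± 0.19 (SE, adjusted p = 0.816 by edgeR), with an interval of 0.09 to 0.89, and 0.37 without lamb 8778. Averaged over both sexes it was 0.29 ± 0.13 (SE, adjusted p = 0.943 by edgeR). DECR2, its peroxisomal counterpart, had 148, 331 and 382 CPM in Biosolids males, against 223, 378 and 475 CPM in Control males, and the lowest Biosolids male was again 8778. Its log2 fold change in males was -0.28 ± 0.19 (SE, adjusted p = 0.816 by edgeR), and -0.17 without lamb 8778. ECI1 and ECI2, the enoyl-CoA isomerases that move a double bond, were not called.

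The electron transfer flavoprotein, ETFA with ETFB, passes electrons from the dehydrogenases to ETFDH and so to the respiratory chain. ETFB had 155, 185 and 340 CPM in Biosolids males and 161, 180 and 249 CPM in Control males, with medians close together and overlapping ranges. Its log2 fold change in males was 0.20 ± 0.17 (SE, adjusted p = 0.836 by edgeR), and 0.06 without lamb 8778. ETFA had 64.9, 74.9 and 85.3 CPM in Biosolids females and 56.1, 77.3 and 108.5 CPM in Control females, with a log2 fold change of -0.10 ± 0.17 (SE, adjusted p = 1.0 by edgeR) and between -0.16 (without Control female 8313) and -0.03 (without lamb 8263) with single lambs left out. The Biosolids females lay inside the range of the Control females. ETFDH ranged between 115 and 269 CPM over all lambs.

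In peroxisomes, EHHADH, the bifunctional enzyme that acts after the oxidase step and a well-known PPARα target in rodents, had 349, 576 and 989 CPM in Biosolids females, against 259, 578 and 827 CPM in Control females. In males it had 567, 820 and 1037 CPM in the Biosolids group and 587, 800 and 921 CPM in the Control group. The medians of the exposed and unexposed lambs lay close together in each sex. The log2 fold change was 0.10 ± 0.20 in females and 0.06 ± 0.21 in males (SE; adjusted p = 1.0 and 0.963 by edgeR). Neither estimate had a stable sign, since leaving out single lambs gave -0.04 to 0.21 in females and -0.02 to 0.12 in males. ACOX2 (the oxidase of branched chains and bile acid intermediates), HSD17B4 (the D-bifunctional protein), ACAA1, PEX11A (a protein of peroxisome division), ABCD2 and ABCD3 were not called for exposure.

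ACAT1 was the steadiest of the 36 genes seen in every lamb, with a highest level 1.81-fold the lowest. It had 187, 200.5 and 283.5 CPM in Biosolids females and 158, 203 and 261 CPM in Control females, and 157, 193 and 225 CPM in Biosolids males and 158, 185 and 195 CPM in Control males. All ranges overlapped. The log2 fold change was 0.09 ± 0.11 in females, 0.12 ± 0.12 in males and 0.10 ± 0.08 over both sexes (SE; adjusted p = 1.0, 0.848 and 0.943 by edgeR). In females the estimate of ACAT1 was 0.02 without Biosolids female 8775 and 0.15 without Control female 8313. The interval over both sexes, -0.07 to 0.27, lay within 1.5-fold.

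Of the 3 genes known to answer to fasting and lipid load, VNN1 and PLIN2 were among the more variable. Their biological coefficients of variation were 52.4% and 49.3%, while that of PDK4 was 29.9%, beside a median of 28.4% over all genes. PDK4, the kinase that shuts pyruvate dehydrogenase and so spares glucose when fat is burned, had 178, 200.0 and 378 CPM in Biosolids females, against 96.5, 154 and 280.5 CPM in Control females. In males it had 91.1, 167 and 232 CPM in the Biosolids group and 131, 204 and 260.3 CPM in the Control group. Biosolids female 8775, at 378 CPM, stood above the other 7 Biosolids females, which lay between 178 and 242 CPM, and the groups overlapped in both sexes. For PDK4 in females the log2 fold change was 0.43 ± 0.21 (SE, adjusted p = 1.0 by edgeR), and 0.29 without lamb 8775. In males it was -0.23 ± 0.23 (SE, adjusted p = 0.848 by edgeR), and -0.12 without Biosolids male 8764, and the interaction was -0.66 ± 0.31 (SE, adjusted p = 0.951 by edgeR).

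PLIN2, the perilipin that coats lipid droplets in hepatocytes, spanned 8.60-fold over the lambs, the widest span of the 36 genes. It had 36.8, 88.2 and 149 CPM in Biosolids females, against 17.4, 52.4 and 108 CPM in Control females, and 21.7, 40.1 and 105 CPM in Biosolids males, against 31.3, 55.5 and 109 CPM in Control males. The groups overlapped in both sexes, with a log2 fold change of 0.64 ± 0.36 in females and -0.26 ± 0.39 in males (SE; adjusted p = 1.0 and 0.892 by edgeR). Leaving out single lambs moved the male estimate between -0.51 (without Biosolids male 8735) and -0.08 (without Control male 8351). VNN1, a pantetheinase that recycles a precursor of coenzyme A, had 68.5, 100.9 and 171 CPM in Biosolids females and 34.2, 84.3 and 180.1 CPM in Control females, and 34.8, 74.9 and 220 CPM in Biosolids males and 29.1, 101.3 and 145.5 CPM in Control males. Its lambs scattered widely in all 4 groups. The log2 fold change was 0.15 ± 0.38 in females and -0.11 ± 0.41 in males (SE; adjusted p = 1.0 and 0.967 by edgeR). With single lambs left out the female estimate of VNN1 ranged between 0.02 (without Biosolids female 8714) and 0.35 (without Control female 8313). In males it was -0.53 without Biosolids male 8762 and 0.03 without Control male 8351.

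**Figure D3:**
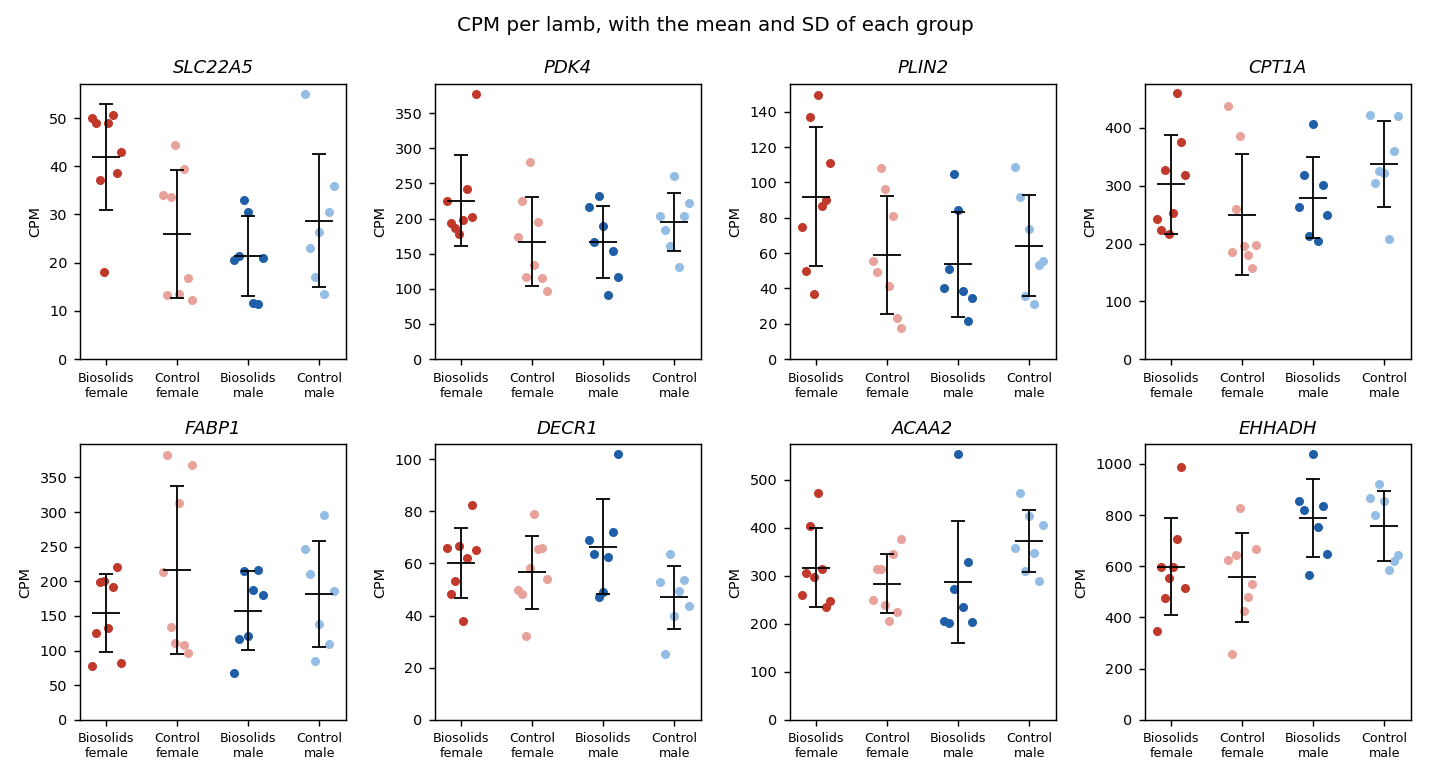
CPM of SLC22A5, PDK4, PLIN2, CPT1A, FABP1, DECR1, ACAA2 and EHHADH in each lamb of the 4 groups (8 Biosolids and 8 Control females, 7 Biosolids and 7 Control males), with the group mean and SD as bars on a linear axis. The lambs of the Biosolids and Control groups overlap in every panel and in both sexes.

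Between the sexes, 0 of 37 genes were called in exposed lambs, beside 0.0953% of all genes, and 0 of 37 in controls, beside 0.0841% of all genes. By unadjusted p under 0.05 the edgeR test marked 3 of the 37 genes between exposed males and females (8.11%, against 4.85% of all genes) and 2 between control males and females (5.41%, against 18.9%). DESeq2 and limma voom called 0 of the 37 in both. Of all 17840 genes each called 19 in exposed lambs, and in controls DESeq2 called 54 and limma voom 64. No gene's males were free of overlap with its females in either exposure group (0 of 37 in each, beside 0.0673% of all genes in exposed lambs and 0.213% in controls). As a list the genes had a median log2 fold change, males over females, of 0.00 in exposed lambs, with 18 estimates above 0 and 19 below, beside 0.00 over all genes. In controls the median was 0.14, with 28 above and 9 below, beside -0.04 over all genes, and it was 0.07 without Control female 8263 and 0.175 without the library labelled Control male 8408. In the same controls 8 of 10 hepatocyte markers tested had estimates above 0 (median 0.35), and the stellate and fibroblast markers summed to 426 to 672 CPM in males against 238 to 397 CPM in females, with no overlap; their part in the list's median was not tested.

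In exposed lambs SLC22A5 had the lowest p, with levels of 11.5 to 32.9 CPM in males, against 18.1 to 50.7 CPM in females. The log2 fold change, males over females, was -0.97 ± 0.32 (SE, adjusted p = 0.835 by edgeR), with an interval of -1.62 to -0.32. PLIN2 followed at -0.78 ± 0.38 and PDK4 at -0.43 ± 0.22 (SE, adjusted p = 0.969 for each by edgeR), and the PDK4 value was -0.29 without lamb 8775. In the other direction stood ACADSB, with 105.5, 274 and 460 CPM in Biosolids males, against 120.1, 160.1 and 278.5 CPM in Biosolids females. Its log2 fold change was 0.55 ± 0.25 (SE, adjusted p = 0.969 by edgeR), and 0.34 without lamb 8778, the highest of all 30. EHHADH (0.40 ± 0.20) and HSD17B4 (0.36 ± 0.20) came next in males over females (SE, adjusted p = 0.969 for each by edgeR).

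In controls the lowest p among these genes belonged to EHHADH, with a log2 fold change, males over females, of 0.44 ± 0.20 (SE, adjusted p = 0.246 by edgeR). Control males had 587, 800 and 921 CPM of EHHADH, against 259, 578 and 827 CPM in Control females, which overlap above 587 CPM. The 587 CPM was that of the library labelled Control male 8408, which goes against its sex label on LOC101112291. That library was also the lowest Control male for CPT1A, at 207.5 CPM. Leaving out single lambs, 8408 among them, gave 0.32 to 0.55 for EHHADH and 0.36 to 0.60 for CPT1A. CPT1A stood at 0.43 ± 0.22 and ACADSB at 0.49 ± 0.25 (SE; adjusted p = 0.269 and 0.273 by edgeR), and ACADSB was 0.30 without Control male 8364. Lower in males by point estimate were ETFB at -0.34 ± 0.16, ETFA at -0.29 ± 0.18 and ACAT1 at -0.17 ± 0.12 (SE; adjusted p = 0.258, 0.337 and 0.395 by edgeR). ETFA was -0.45 without Control male 8364, and ACAT1 was -0.11 without Control female 8313. The EHHADH estimates in exposed and in control lambs, 0.40 and 0.44, had intervals that overlapped almost wholly.

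Lambs of the same group also differed from one another, and many of these genes varied in step. After each group's mean was subtracted from log2 CPM, the median Pearson r over the 666 pairs of the 37 genes was 0.21 across 30 lambs, beside 0.00 over all gene pairs. Of the pairs, 67.9% were positive (all gene pairs: 50.1%), and 55, or 8.26%, had an r of at least 0.7 (all gene pairs: 1.2%). The median was 0.17 without Control female 8263. With permutation of lambs within groups (two-sided, 100000 resamples), 207 of the 666 pairs passed an adjusted p of 0.05 by Pearson r, 176 positive and 31 negative, and 188 passed by Spearman rho as well. All 207 kept their sign without the 2 lambs farthest from the median of the first gene of the pair, with an absolute r of at least 0.287, and all 207 kept it without lamb 8263. Pairs picked for a large r over 30 lambs seldom change sign when 1 or 2 lambs are dropped, so the sign check could hardly fail. These pairs were computed after the levels had been seen, share the same libraries and scaling, and are not independent of one another. The share of all gene pairs that would pass was not computed. The count of passing pairs, and the counts of passing partners per gene below, therefore have no background beside them.

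**Figure D4:**
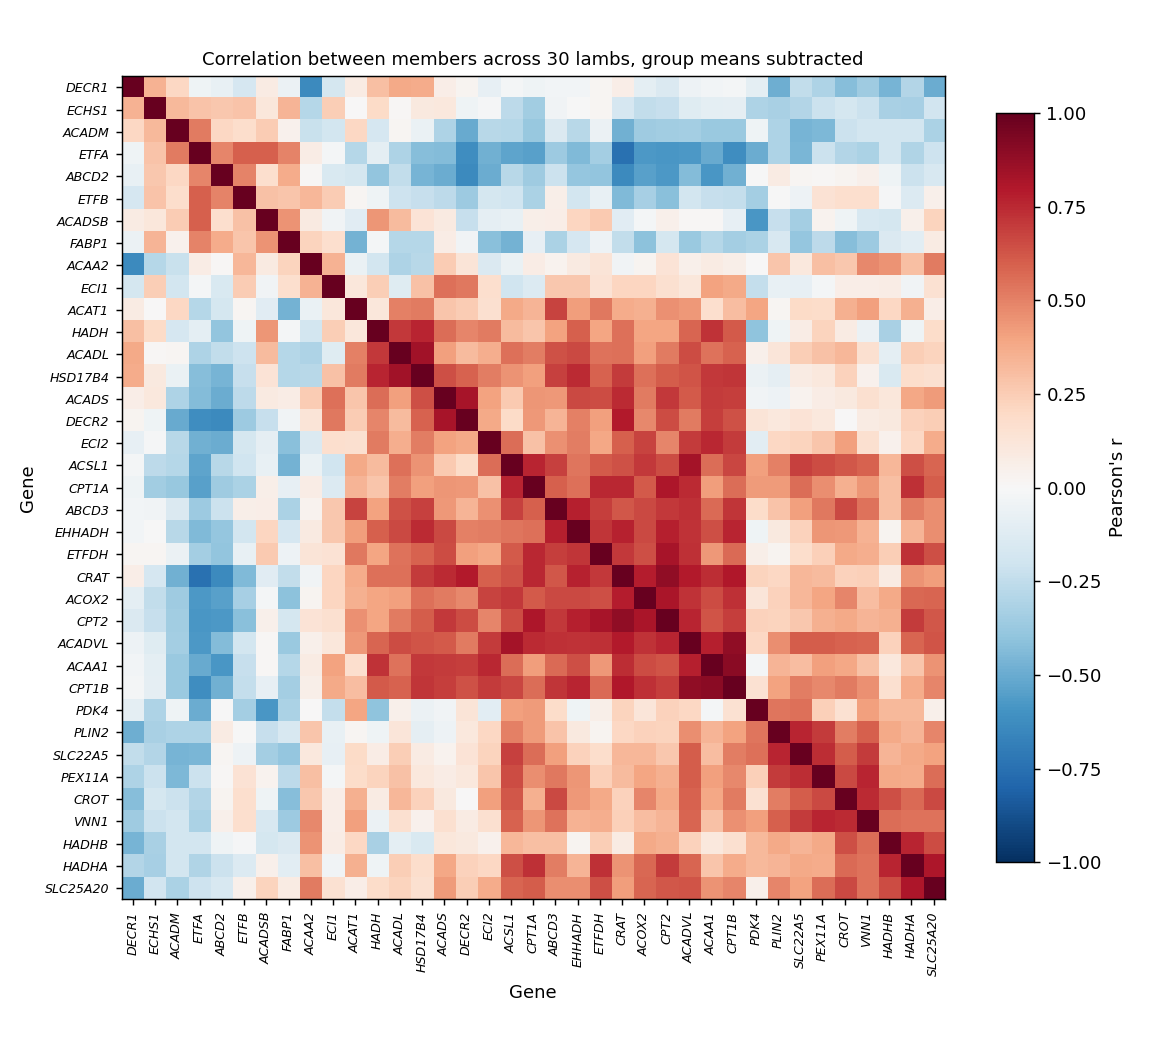
Pearson r of log2 CPM, with group means subtracted, for each pair of the 37 genes tested across 30 lambs, with genes placed by average-linkage clustering of r. A broad block of positive r holds ACADVL, ACSL1 and CPT1B, while ETFA has mostly negative r.

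The carnitine shuttle had a median r of 0.56 over its 21 pairs, all between 0.23 and 0.89. Peroxisomal oxidation had a close median, 0.53 over 21 pairs, with a wider range of -0.58 to 0.78. That role includes ABCD2, which was near the floor at a median of 0.158 CPM, so the 2 medians do not rank the roles. CPT2, the inner-membrane partner that hands the chain back to coenzyme A, and CRAT had r = 0.886 and rho = 0.879 (permutation adjusted p = 0.000416 and 0.000533; r = 0.852 without the 2 farthest lambs). CPT1B, though near the bottom of the levels, had r = 0.899 and rho = 0.878 with ACAA1 (permutation adjusted p = 0.000416 and 0.000533; r = 0.860 without the 2 farthest lambs). ACADVL had the highest median r with the other genes, 0.59, and 22 positive partners, followed by ACSL1 at 0.52 and CPT1B at 0.50. HADHA and HADHB, the head-to-head pair, had r = 0.758 and rho = 0.806 (permutation adjusted p = 0.000459 and 0.000533; r = 0.790 without the 2 farthest lambs).

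SLC22A5, PLIN2, PEX11A and VNN1 varied together between lambs of a group. SLC22A5 with PLIN2 had r = 0.762 and rho = 0.735 (permutation adjusted p = 0.000459 and 0.00154; r = 0.749 without the 2 farthest lambs). PEX11A with VNN1 had r = 0.760 and rho = 0.707 (permutation adjusted p = 0.000774 and 0.00188; r = 0.688 without the 2 farthest lambs). SLC22A5 with PEX11A had r = 0.740 and rho = 0.717 (permutation adjusted p = 0.000969 and 0.00166; r = 0.755 without the 2 farthest lambs). PEX11A shares exon sequence on the same strand with the row of PLIN1, so its count of 23.4 CPM (median) is uncertain beside the 14.2 CPM of PLIN1.

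ETFA ran the other way, with a median r of -0.31 with the other genes and 13 negative partners that passed. ABCD2 had 10 negative partners that passed and 0 positive ones, with a median r of -0.20. Its counts were near the floor, with a median of 0.158 CPM, 2 lambs at 0 and the highest level in lamb 8778. ETFA with CRAT had r = -0.747 and rho = -0.800 (permutation adjusted p = 0.000416 and 0.000533; r = -0.676 without the 2 farthest lambs). ACAA2 and DECR1, which differed in opposite directions by point estimate in males, also ran against each other within groups, with r = -0.635 and rho = -0.662 (permutation adjusted p = 0.00188 and 0.00210; r = -0.580 without the 2 farthest lambs). ETFA and DECR1 were each highest in Biosolids male 8778, the library with few counts outside ribosomal RNA. Without that lamb r was -0.710 for ETFA with CRAT and -0.613 for ACAA2 with DECR1. Among Control males, ETFA was highest (109 CPM) and DECR1 lowest (25.4 CPM) in lamb 8364, the library with the lowest share of ribosomal RNA. Lambs 8263, 8778 and 8364 were each the highest of their group for ETFA and the lowest of their group for CRAT. CRAT stood at 252, 273 and 339 CPM in them. In Biosolids females ETFA was highest in lamb 8668 and CRAT lowest in lamb 8647. The r without lamb 8364 alone, or without lambs 8263, 8778 and 8364 together, was not computed. The part of library quality in these correlations was not tested.

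PDK4 was set against each of the other 36 tested genes as a family of its own. By Pearson r none passed (smallest permutation adjusted p = 0.0696), while by Spearman rho 3 passed, each with a permutation adjusted p of 0.0389. These were ACADSB (r = -0.579, rho = -0.607), SLC22A5 (r = 0.548, rho = 0.573) and PLIN2 (r = 0.537, rho = 0.574). Without the 2 lambs farthest from the median of PDK4 (8764 and 8378) r was -0.546 for ACADSB, 0.453 for SLC22A5 and 0.476 for PLIN2. PDK4 with CPT1A had r = 0.423 and rho = 0.422 (permutation adjusted p = 0.212 and 0.196), which did not pass. Adjusted instead over the 666 pairs, among which many passed, PDK4 had 2 positive and 2 negative partners that passed by Pearson r. PDK4 with SLC22A5 had a permutation adjusted p of 0.0203 by Pearson r in that family. Whether any partner of PDK4 passes by Pearson r thus depends on the family of tests.

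Some lambs were low or high in many of these genes at once. Control female 8263 was the lowest of all 30 lambs in 14 of the 37 genes and the lowest Control female in 17, and it lay below its group's median in 31, by a median of -0.58 on the log2 scale. Control female 8322 lay below its group's median in 29 genes (median -0.33). Biosolids male 8762 was the highest of its group in 16 genes (median 0.30), and Biosolids female 8647 the lowest of its group in 16 (median -0.25). The same positions over all genes were not computed. These counts therefore have no background beside them and do not show a trait of this pathway. Lamb 8263 was also the one with high interferon-response genes and macrophage markers, with T and NK cell markers at 50.8 CPM against a median of 21.95 CPM in Control females; their part in its low levels was not tested.

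**Figure D5:**
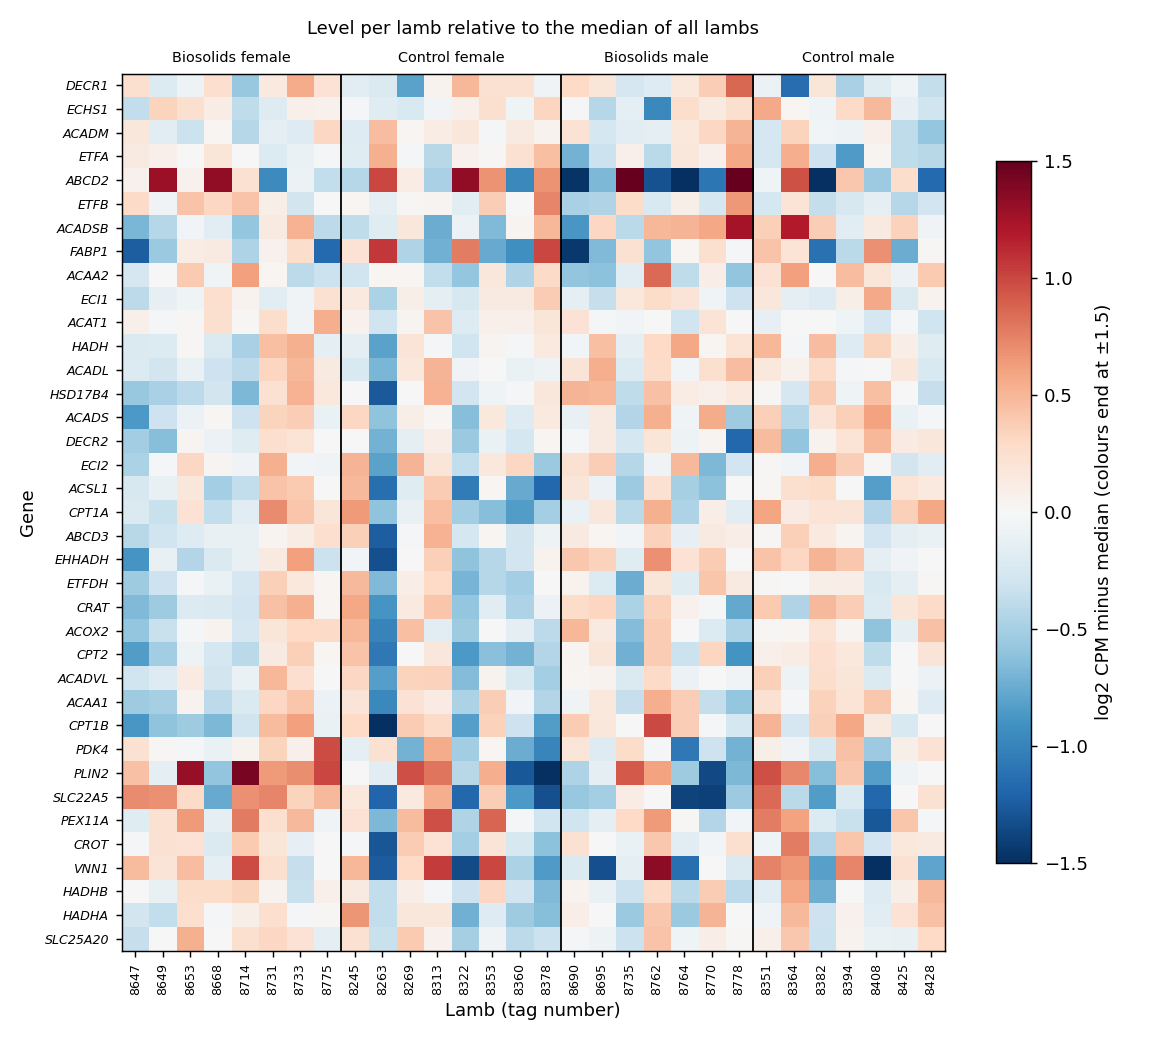
Log2 CPM of the 37 genes tested (rows, in the order of the correlation plot) in each of the 30 lambs (columns, by group), as the difference from the gene's median over all lambs, with colours ending at 1.5 in either direction. Control female 8263 is the column of low values, lowest of all lambs in 14 genes (its count over all genes was not computed), and FABP1 is high in it.

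Other genes of the pathway were taken as 5 lists, and 0 of 91 tested genes were called in either direction in any of the 6 comparisons by edgeR. Over all 17840 genes tested, edgeR called 0% in each exposure comparison and in the interaction. It called 0.0953% between exposed males and females and 0.0841% between control males and females. The 0 of 91 therefore did not set these lists apart from all genes. The lists held 24 tested genes of 26 further oxidation enzymes, 8 of 10 genes of ketogenesis and ketone use, 15 of 15 genes of lipid droplet lipolysis, 27 of 27 regulators and 17 of 22 genes of uptake, activation and hydrolysis.

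The lowest p of each list for exposure in females belonged to PLIN3, a second lipid droplet coat protein (0.58 ± 0.22), INSIG2, which holds back sterol synthesis (0.54 ± 0.28), the fatty acid transporter SLC27A4 (0.57 ± 0.44), the medium-chain acyl-CoA synthetase ACSM1 (0.30 ± 0.18) and the acetoacetyl-CoA synthetase AACS (-0.28 ± 0.22), all as log2 fold change ± SE (adjusted p = 1.0 for each by edgeR). PLIN3 had 32.1, 60.5 and 96.3 CPM in Biosolids females and 23.95, 40.9 and 59.0 CPM in Control females, with overlap. In males the lowest p belonged to PHYH, the first enzyme of phytanic acid alpha-oxidation (0.52 ± 0.20), ANGPTL4, an inhibitor of lipoprotein lipase (-0.57 ± 0.24), the acyl-CoA binding protein gene DBI (0.51 ± 0.27), the cytosolic dehydrogenase BDH2 (0.43 ± 0.23) and the triglyceride lipase PNPLA2 (-0.30 ± 0.19), each with an adjusted p of 0.816 by edgeR. PHYH had 193, 282 and 771 CPM in Biosolids males, with lamb 8778 highest, against 206, 250.5 and 276.5 CPM in Control males. Over both sexes the lowest p were those of FGF21, a fasting hormone of liver (1.27 ± 0.57), PLIN3 (0.35 ± 0.16), PHYH (0.29 ± 0.14), BDH2 (0.19 ± 0.16) and the acyl-CoA synthetase ACSL6 (-0.35 ± 0.29), each with an adjusted p of 0.943 by edgeR. FGF21 had 1.81, 7.06 and 25.5 CPM in Biosolids females, against 0.172, 3.48 and 20.9 CPM in Control females. In males it had 1.06, 5.33 and 71.8 CPM in the Biosolids group and 1.56, 5.28 and 9.95 CPM in the Control group, so the ranges overlapped in both sexes, the male medians were nearly equal and Biosolids male 8762 was the highest lamb.

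For the interaction ANGPTL4 had the lowest p of the lists, at -0.90 ± 0.33 (SE, adjusted p = 0.951 by edgeR). It had 49.3, 68.6 and 107 CPM in Biosolids males, against 83.2, 102 and 145 CPM in Control males. In females it had 68.2, 79.6 and 173 CPM in the Biosolids group and 35.1, 68.8 and 113 CPM in the Control group, and the groups overlapped in both sexes. CIDEC (-0.93 ± 0.39), ACOT9 (0.89 ± 0.42), AACS (0.67 ± 0.33) and ECHDC1 (0.31 ± 0.16) followed for the interaction (SE, adjusted p = 0.951 for each by edgeR). Between control males and females low p in the lists were those of ACOT9 (-1.05 ± 0.30), FOXO1 (0.49 ± 0.17), ACSM1 (0.46 ± 0.19) and LIPA (-0.39 ± 0.24), with adjusted p between 0.198 and 0.345 by edgeR. Between exposed males and females they were those of CIDEA (-0.51 ± 0.20), AMACR (0.38 ± 0.17), FABP4 (-1.73 ± 0.83), PPARG (-0.56 ± 0.28) and SLC16A6 (-0.74 ± 0.41), each with an adjusted p of 0.969 by edgeR. PPARA, the receptor known in rodents to drive this pathway in fasting, had a median of 315 CPM. Its log2 fold change was -0.08 ± 0.21 in females, and in males it was -0.22 ± 0.23 (SE; adjusted p = 1.0 and 0.852 by edgeR).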

How the data were processed

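Frozen liver gave column-purified RNA, which became TruSeq RNA libraries for a NovaSeq run, per the labels' protocols. The submitters' processing notes name featureCounts 1.5.0-p3, STAR, Trimmomatic, MultiQC and FastQC, without roles or settings. The values are whole-number read counts per gene as deposited, not normalized, in 1 table with a column per lamb and 0 columns left without a lamb. 7 genes broken over 25 lines were joined. 28862 gene names matched RefSeq (ARS-UI_Ramb_v3.0), with the same start and end for each of the 28855 compared.

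Groups came from the labels, and lambs are called by their tags. In R 4.3.3, genes were kept by filterByExpr, scaled by TMM and fitted with edgeR 4.0.16 (robust quasi-likelihood, 1 mean for each of the 4 groups, 26 residual degrees of freedom; the fit was tested on simulated data). Intervals are 95% from the SE. P-values measure the spread between lambs taken as independent, and levels of low genes carry counting error besides. Correlations use log2 CPM with a prior count of 2. DESeq2 1.42.0, limma 3.58.1 (voom with sample weights), RLE scaling, other low-count filters, removal of the 25 ribosomal RNA rows, fits of only the groups compared and leaving out each lamb were tried. The genes, lists and named genes were chosen with earlier results of these data known. The rule named genes central to the pathway, the 3 lowest p in each direction of each comparison, the 3 highest and lowest levels, and the lowest p of each further list. Some genes of the further lists are not reported here by name.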

Additional observations from a re-analysis of the deposited data

Results flagged for a closer look

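Single lambs stood apart from the rest of their group in 9 of 148 combinations of gene and group examined; chance alone flags about 1 in 20. In Biosolids females, SLC22A5 was low in lamb 8668 at 18.1 CPM, against 37.2 to 50.7 CPM in the other 7, and PDK4 was high in lamb 8775 at 378 CPM, against 178 to 242 CPM. In Biosolids males, DECR2 was low in lamb 8778 at 148 CPM, against 280 to 382 CPM in the other 6, and that library had few counts outside ribosomal RNA. In Control females, lamb 8263 was low in ABCD3 at 32.0 CPM, against 62.2 to 108 CPM, and in HSD17B4 at 123 CPM, against 240.5 to 422 CPM. In Control males, the library labelled 8408 was low in CPT2 at 90.2 CPM, against 117 to 139 CPM, and in ACSL1 at 617 CPM, against 1106 to 1330 CPM. Control male 8364 was high in ACADSB at 443 CPM, against 173 to 250 CPM, and low in DECR2 at 223 CPM, against 349 to 475 CPM. Its library had the lowest share of counts on ribosomal RNA rows, 0.299%. The causes were not tested.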

How the results depend on the processing

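The count of called genes stayed at 0 of those tested in all 6 comparisons under each of the 38 alternatives run, 30 of which left out 1 lamb each. The rest were RLE scaling, DESeq2, limma voom, 2 other low-count filters, ribosomal RNA rows taken out, fits of only the groups compared (not run over both sexes or for the interaction, which need all lambs), and lambs 8778 and 8263 left out together, a choice made after seeing the data. Of 51 fold changes of named genes, 4 changed sign under an alternative, and the cause was not tested. EHHADH in females was -0.055 by limma voom and -0.037 to 0.208 with single lambs left out. HADHB in males was 0.016 by limma voom. EHHADH in males was -0.021 to 0.124 and VNN1 in males -0.534 to 0.034 with single lambs left out. The median log2 fold change of the list ranged, with single lambs left out, over 0.00 to 0.12 in females, -0.13 to 0.00 in males and -0.01 to 0.06 over both sexes. It ranged over -0.17 to -0.01 for the interaction, -0.05 to 0.03 between exposed males and females, and 0.07 to 0.22 between control males and females. The lowest adjusted p of any of these genes with a lamb left out was 0.108, between control males and females, and by limma voom it was 0.0788. The number of these genes tested was 36 to 38, depending on the alternative. Over all genes tested, the highest count called under any alternative was 64 of 17840, by limma voom between control males and females. No paired analysis was possible because the groups share no replicate numbers.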
